A study of Mus musculus with 8 samples.

Results

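Eicosanoids are short-lived lipid mediators made from arachidonic acid, a fatty acid that phospholipases release from membranes. The 10 mouse genes described here, out of 18215 gene numbers in the tables, encode the enzymes and the activating protein that start and direct this synthesis: Alox5, Alox5ap, Lta4h and Ltc4s of the leukotriene branch, the lipoxygenases Alox12 and Alox15, the cyclooxygenases Ptgs1 and Ptgs2, and the prostaglandin synthases Ptges and Ptgds. They were taken by symbol, and all 10 were listed in the tables. Alox5 was chosen by its measured values, for its lower level in transgenic hearts. Its difference between groups is therefore given as a description without a test. The other 9 genes were taken for their place in the pathway, but with earlier results of these data known.

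The study compared hearts of mice labelled Carns transgenic (TG) with wild-type hearts (WT), with 4 libraries of polyadenylated mRNA in each group. Carns1 encodes carnosine synthase, which makes carnosine and related histidyl dipeptides, small molecules that bind reactive aldehydes formed when lipids are oxidized. The strain, sex and age of the mice, the promoter of the transgene and the number of founder lines are not given in the sources used here, and the labels do not say whether the libraries of a group came from separate animals. The p-values therefore measure only the spread between these libraries, which may be technical.

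In the leukotriene branch, 5-lipoxygenase (Alox5) works with the membrane protein FLAP (Alox5ap), which presents arachidonic acid to it, and forms the unstable intermediate leukotriene A4. Leukotriene A4 hydrolase (Lta4h) turns this into leukotriene B4, which attracts neutrophils, and leukotriene C4 synthase (Ltc4s) joins it to glutathione to form the cysteinyl leukotrienes, which make vessels leak and smooth muscle contract. The cyclooxygenases form prostaglandin H2, from which terminal synthases make the separate prostaglandins and thromboxane. Macrophages, mast cells and neutrophils are known for 5-lipoxygenase and FLAP, while cardiac muscle is not, so a transcript of this branch in whole heart can come from a minority of the cells. In whole tissue, fewer cells of a type and less RNA per cell cannot be told apart.

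Library totals lay between 6261193 and 7897629 expected counts. Carns1 averaged 20800 ± 2450 CPM in TG hearts and 62.6 ± 12.5 CPM in WT hearts (SD, n = 4 each), where CPM is the count scaled to a common library size after TMM scaling, so every library matched its label. Heart muscle markers (Myh6, Tnnt2, Tnni3, Actn2, Ryr2 and Pln) summed to 42900 to 51800 CPM in TG hearts and 40700 to 50400 CPM in WT hearts. Over all 12670 genes tested, 2 were called at an adjusted p under 0.05 (quasi-likelihood test of edgeR, p adjusted by Benjamini-Hochberg), which is 0.0158% of them: Carns1, higher in TG, and Lrrc15, the 1 gene (0.00789%) called lower in TG. TG replicate 2 held the most fat and atrial transcripts. Its adipocyte markers (Adipoq, Plin1, Car3, Cfd and Cidec) summed to 752 CPM, and to at most 43.8 CPM in any other library. The atrial gene Myl7 stood at 203 CPM in TG replicate 2 and 46.8 CPM in TG replicate 4. It stood at 18.8 CPM in WT replicate 1, 12.4 CPM in WT replicate 4 and at most 2.87 CPM in the other libraries. TG replicate 1 stood apart in neutrophil markers, at 98.0 CPM summed and at most 27.6 CPM elsewhere.

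The promoters of Alox5 and Ltc4s are shown because these were the tested genes of the group that stood lowest in TG relative to WT. Each is the 250 bases before the gene's start in RefSeq (build GRCm38.p6), printed 5′ to 3′ on the gene's own strand, and capitals mark the GC box GGGCGG, a motif bound by Sp-family factors, searched on both strands. The Alox5 stretch lies at chr6:116461179-116461428 on the minus strand, and the Ltc4s stretch at chr11:50238533-50238782 on the minus strand.
Alox5: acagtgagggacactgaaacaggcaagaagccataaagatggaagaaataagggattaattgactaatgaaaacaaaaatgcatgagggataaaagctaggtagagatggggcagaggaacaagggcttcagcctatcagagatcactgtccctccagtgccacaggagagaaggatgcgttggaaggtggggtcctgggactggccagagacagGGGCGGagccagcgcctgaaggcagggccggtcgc
Ltc4s: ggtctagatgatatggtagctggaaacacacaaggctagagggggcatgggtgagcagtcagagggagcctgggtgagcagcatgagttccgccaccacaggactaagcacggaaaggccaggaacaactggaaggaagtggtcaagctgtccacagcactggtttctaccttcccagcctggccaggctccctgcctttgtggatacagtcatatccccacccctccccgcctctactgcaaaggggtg

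The Alox5 stretch held 1 GC box, whose first base lies 35 bases before the start, and the Ltc4s stretch held none. The table held 8 of the 10 genes, and among the others Alox12 and Ptges had 2 GC boxes each, Ptgs2 had 1, and Lta4h, Ptgs1 and Ptgds had none. Of all 32841 promoter windows of this length, 32.7% held GGGCGG. The TATA box TATAAA, searched on both strands, was in none of the 8 windows and in 12.4% of all windows. These are matches of letters, not measured binding.

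Alox5, 5-lipoxygenase, was the leukotriene gene with a full separation of the groups and enough counts to be measured well. It had 201, 115, 167 and 131 counts in TG replicates 1 to 4, and 249, 256, 213 and 230 counts in WT replicates 1 to 4. On the CPM scale these were 26.2, 18.2, 23.2 and 19.5 in TG and 32.1, 34.9, 32.0 and 35.2 in WT. The highest TG library lay below the lowest WT library, and the 4 WT values were close together while the TG values were spread more widely. The mean was 21.8 ± 3.64 CPM in TG hearts and 33.5 ± 1.73 CPM in WT hearts (SD, n = 4 each), 35.1% lower in TG, with a fitted log2 fold change of -0.62. Every TG library lay below every WT library in 164 of the 12670 genes tested, or 1.29%. Alox5 was picked for its lower level, so nothing is read from its place among them. The opposite separation, every TG library above every WT library, was found in 1.23% of the genes and in none of the 10 enzyme genes. Alox5 was not among the 2 genes called over all genes.

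The 4 TG values of Alox5 stood in the order of the library totals, with replicate 1 highest, then replicates 3, 4 and 2. Lta4h and Ptgs1 had the same order in TG, at 33.3, 30.4, 28.2 and 24.1 CPM for Lta4h and 19.2, 18.1, 17.5 and 15.9 CPM for Ptgs1, taken from the largest to the smallest library. In WT none of these 3 genes followed the totals, and Alox5 was highest there in replicate 4, the smallest WT library. Within the libraries above 7000000 counts, Alox5 stood at 26.2 and 23.2 CPM in TG hearts and at 32.1 and 34.9 CPM in WT (log2 fold change -0.44), and within those below it at 18.2 and 19.5 CPM in TG hearts and at 32.0 and 35.2 CPM in WT (-0.83). Whether the size of the difference differed between the depth classes was not tested. The atrial gene Myl7 stood at 203 and 46.8 CPM in TG replicates 2 and 4, the smaller libraries of that group. In TG replicates 1 and 3 it stood at 2.87 and 1.81 CPM. Library total and atrial tissue content therefore cannot be told apart among the TG libraries.

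**Figure D1:**
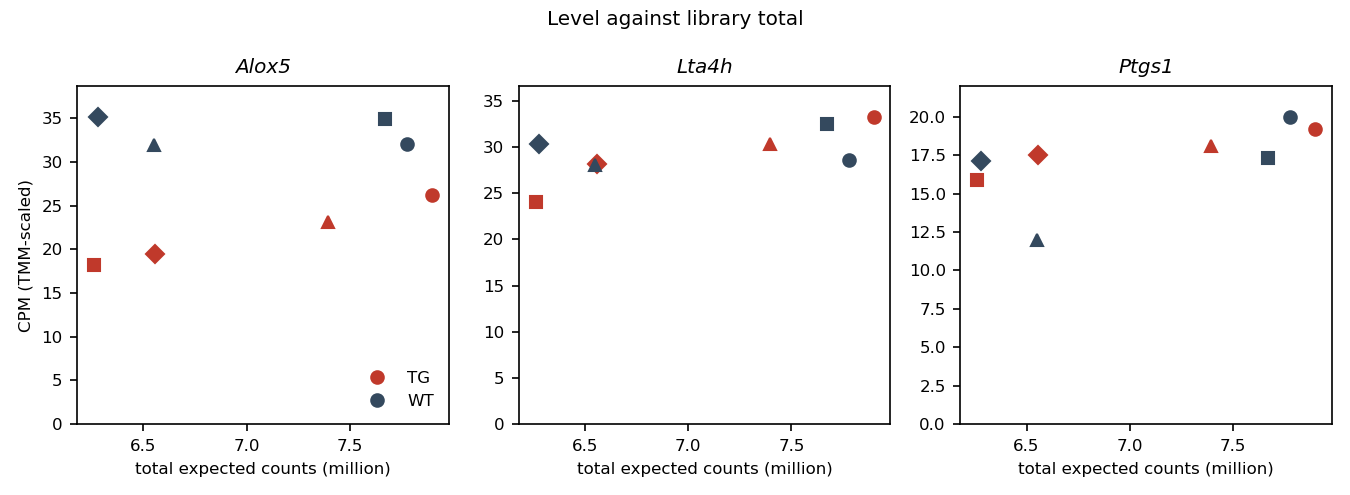
Level of Alox5, Lta4h and Ptgs1 (vertical axis, TMM-scaled CPM, from 0) against the total expected counts of the library (horizontal axis) in TG (red) and WT (dark blue), with 1 marker per library and the same 4 marker shapes for replicates 1 to 4 in each group. All 4 TG libraries lie below all WT libraries for Alox5, the gene chosen for that difference, while the groups overlap for Lta4h and Ptgs1, and the TG points of all 3 genes climb with the total.

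Alox5ap, which encodes FLAP, had 14.5, 12.9, 11.4 and 15.9 CPM in TG replicates 1 to 4 and 13.8, 18.7, 16.2 and 19.7 CPM in WT replicates 1 to 4. WT replicate 1 lay within the TG range, so the groups overlapped. Its log2 fold change was -0.32 (SE 0.16, 95% interval -0.67 to 0.02), and it did not pass the threshold (edgeR, Benjamini-Hochberg adjusted p = 1.0). Ltc4s, the synthase of the cysteinyl leukotrienes, had 3.0, 5.87, 4.31 and 3.57 CPM in TG hearts and 7.73, 8.32, 4.36 and 7.34 CPM in WT hearts. WT replicates 1, 2 and 4 lay above every TG library, and WT replicate 3 lay among them.

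The mean of Ltc4s was 4.19 ± 1.24 CPM in TG hearts and 6.94 ± 1.76 CPM in WT hearts (SD, n = 4 each). The log2 fold change was -0.74 (SE 0.26, 95% interval -1.3 to -0.18), with an unadjusted p of 0.0131 in edgeR and an adjusted p of 1.0 by Benjamini-Hochberg, so the gene did not pass. Of all genes tested, 3.49% had an unadjusted p under 0.05, and among the 7 enzyme genes tested beside Alox5 it was Ltc4s alone. Whether the size of its difference varied between the depth classes was not tested. The log2 fold change of Ltc4s was -1.14 within the deeper libraries and -0.31 within the shallower ones. The adjusted p (edgeR, Benjamini-Hochberg) was 0.0818 in the deeper and 0.984 in the shallower ones.

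Lta4h, the hydrolase that gives leukotriene B4, had 33.3, 24.1, 30.4 and 28.2 CPM in TG replicates 1 to 4 and 28.6, 32.5, 28.1 and 30.4 CPM in WT replicates 1 to 4. The WT values lay inside the TG range. Its log2 fold change of -0.04 had a 95% interval from -0.32 to 0.23 (edgeR, adjusted p = 1.0), the narrowest interval among the 7 tested.

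**Figure D2:**
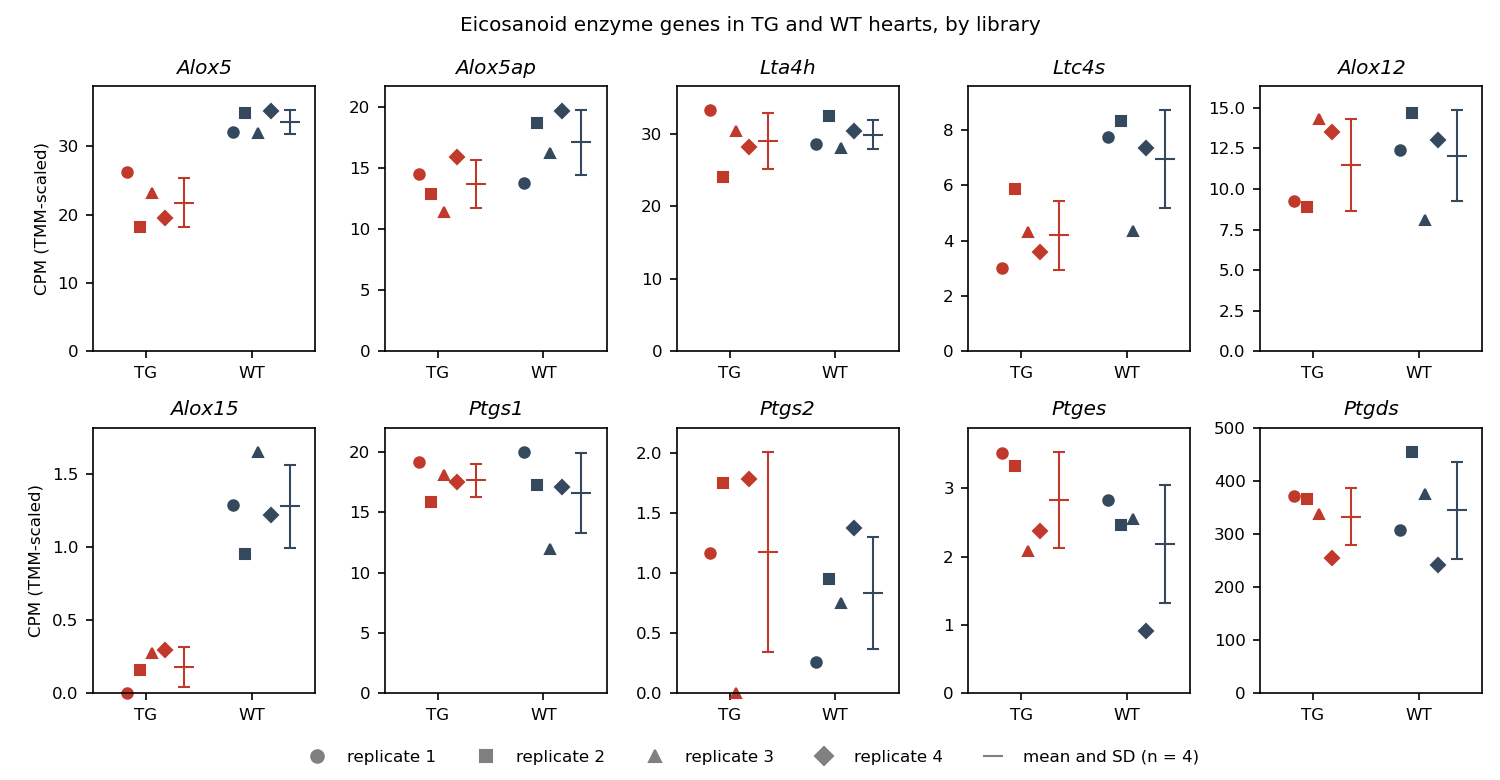
TMM-scaled CPM (vertical axes, from 0, a separate scale for each gene) of the 10 eicosanoid enzyme genes in TG (left, red) and WT (right, dark blue), with 1 marker per library and the mean with SD beside it (n = 4 per group). The TG and WT points are apart for Alox5 and Alox15, partly apart for Ltc4s, and overlap for the other 7 genes.

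Alox15 encodes the 12/15-lipoxygenase, which in mice is known from eosinophils and some resident macrophages and adds oxygen directly to membrane lipids. It was scarce in both groups and lower in the TG libraries. It had 0, 1, 2 and 2 counts in TG replicates 1 to 4, and 10, 7, 11 and 8 counts in WT replicates 1 to 4. Every WT library was above every TG library, and every TG library lay under 3 counts, the upper limit that a count of 0 allows. Summed over libraries this was 5 counts in TG and 36 in WT, a ratio of 0.141 after adjustment for library size, with a 95% exact interval of 0.0431 to 0.36 that covers counting error only.

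Alox15 was too low for the filter on counts and was not among the 12670 genes tested. With no filter, its log2 fold change was -2.71. Its unadjusted p was 0.000296 and its adjusted p 0.269 (edgeR, Benjamini-Hochberg over all genes with a count). DESeq2 gave -2.82, an unadjusted p of 0.00105 and an adjusted p of 0.442. Of the 5508 genes with a count that were under the filter, 49, or 0.89%, had every TG library below every WT library. The eosinophil markers were at or near 0 in both groups: Siglecf, Ccr3 and Prg2 summed to at most 0.159 CPM in a TG library and at most 0.301 CPM in a WT library, and Epx was listed in no library.

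Alox12, the platelet-type 12-lipoxygenase, had 9.26, 8.88, 14.3 and 13.5 CPM in TG hearts and 12.4, 14.7, 8.12 and 13.0 CPM in WT hearts. Both groups held low and high libraries, and the log2 fold change was -0.07 (SE 0.22, 95% interval -0.54 to 0.40; edgeR, adjusted p = 1.0). Its expected counts were not whole numbers in any of the 8 libraries, so reads may have been divided with another feature, and its level is uncertain for that reason. Counts that were not whole were also found in all 8 libraries for Akr1b3, Alox8 and Cmklr1, in 4 for Cyp4f18 and in 2 for Ptges. The levels of these genes, given below, carry the same doubt. The platelet markers (Pf4, Ppbp, Gp9, Itga2b, Gp1ba and Treml1) summed to 27.8 to 50.4 CPM in TG hearts and 30.7 to 44.9 CPM in WT hearts, and of 4 tested 3 had a positive and 1 a negative fold change.

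The cyclooxygenases stood at unlike levels. Ptgs1, the constitutive cyclooxygenase, had 19.2, 15.9, 18.1 and 17.5 CPM in TG hearts and 20, 17.3, 12 and 17.1 CPM in WT hearts, with all TG values inside the WT range. Its log2 fold change was 0.09 (SE 0.16, 95% interval -0.26 to 0.43; edgeR, adjusted p = 1.0). Ptgs2, the inducible form, had 9, 11, 0 and 12 counts in TG replicates 1 to 4 and 2, 7, 5 and 9 counts in WT replicates 1 to 4. It did not pass the filter, its groups overlapped, and the ratio of its summed counts, adjusted for library size, was 1.41 in TG over WT, with a 95% exact interval of 0.80 to 2.52. Ptgs2 is an immediate early gene in many cells, and at this depth no difference between the groups was detectable.

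Of the prostaglandin synthases, Ptges, the inducible microsomal prostaglandin E synthase, had 3.52, 3.33, 2.09 and 2.38 CPM in TG hearts and 2.83, 2.46, 2.56 and 0.917 CPM in WT hearts. WT replicate 4 was the lowest of the 8 libraries, and the other 3 WT values lay inside the TG range. The log2 fold change was 0.35 (SE 0.33), and its 95% interval of -0.36 to 1.07 was the widest among the tested genes (edgeR, adjusted p = 1.0). The log2 fold change was 0.11 without WT replicate 4 and 0.23 without TG replicate 1. Ptgds, the lipocalin-type prostaglandin D synthase, which also carries retinoids and other small lipids outside cells, had 373, 366, 339 and 256 CPM in TG hearts and 309, 455, 376 and 242 CPM in WT hearts. Its TG values lay inside the WT range, with replicate 4 the lowest library in each group. The log2 fold change was -0.05 (SE 0.18, 95% interval -0.44 to 0.34; edgeR, adjusted p = 1.0).

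Of the 7 genes tested beside Alox5, none passed over all genes in edgeR, 1 had an unadjusted p under 0.05, and DESeq2 called none of the other 9. In edgeR with no filter 2 of the 9, Ltc4s and Alox15, had an unadjusted p under 0.05, and 649 of all 18178 genes did. In DESeq2 the same 2 of 9 did, and 396 of all 18148 genes. With Alox5, whose negative sign was set by the choice, 6 of the 8 tested genes had a negative fold change and 2 a positive one. Their median log2 fold change was -0.06. Lta4h (-0.04), Ptgds (-0.05) and Alox12 (-0.07) stood close to 0 and turned sign in some other settings, so this count is not read as a result. Over all genes tested, 6393 were negative and 6277 positive, with a median of -0.0017. The intervals of the 7 genes still contain changes of some size, so these values do not show that the genes were equal in both groups.

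**Figure D3:**
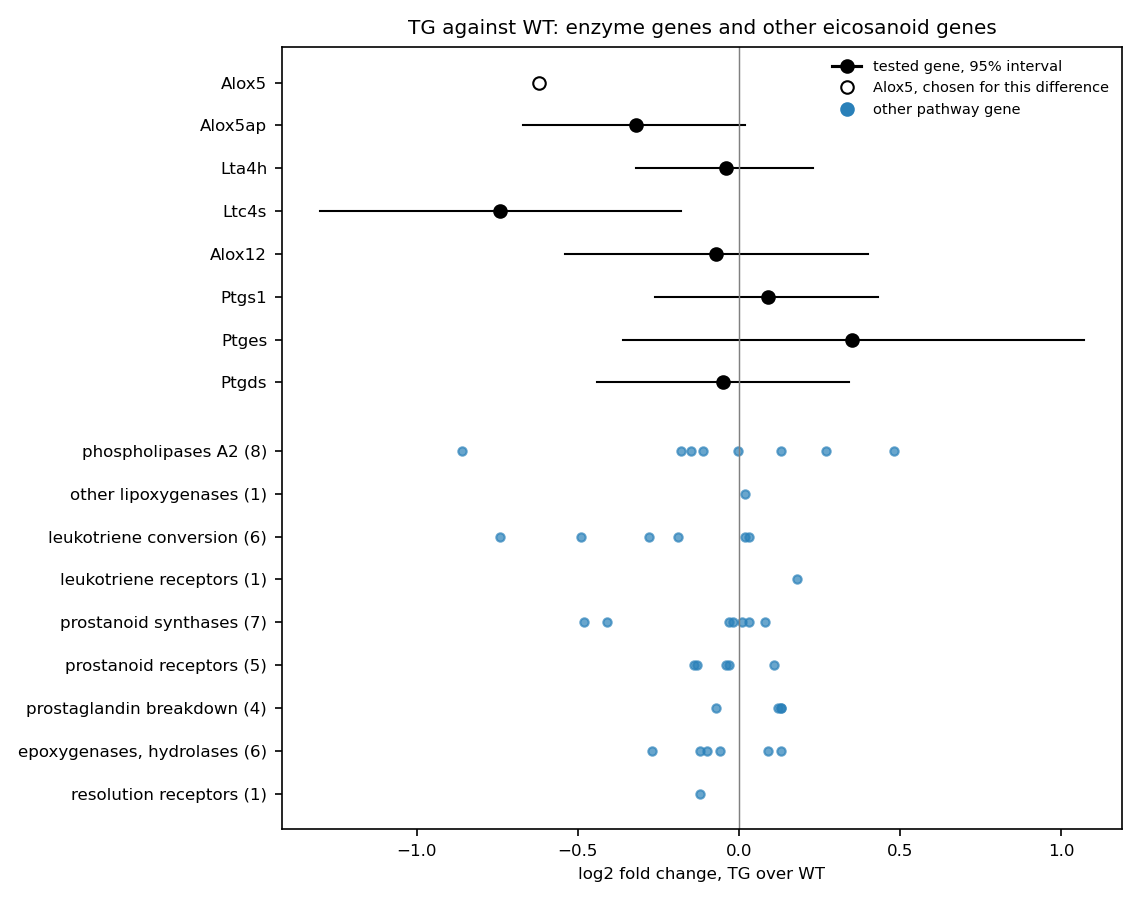
Log2 fold change of TG over WT (horizontal axis) of the 8 tested enzyme genes, with 95% intervals as lines except for Alox5 (open marker), which was chosen for its difference, and below them the 39 tested genes of 9 other eicosanoid gene lists as blue points, with the number of tested genes in brackets. Alox5 stands at -0.62 and Ltc4s at -0.74, and the intervals of the other 6 enzyme genes include 0.

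The levels of the genes can be compared with each other on the deposited FPKM scale, which divides by length. Ptgds was by far the highest, at 421 ± 61.7 FPKM in TG and 437 ± 102 FPKM in WT (SD, n = 4 each). A middle group followed: Alox5ap at 13.4 ± 2.13 FPKM in TG and 16.9 ± 2.78 FPKM in WT, and Lta4h at 13.9 ± 1.61 FPKM in TG and 14.5 ± 0.814 FPKM in WT. These neighbours overlapped in both groups. Alox5 stood at 7.57 ± 1.09 FPKM in TG and 11.8 ± 0.733 FPKM in WT, and Ltc4s at 6.34 ± 1.94 FPKM in TG and 10.5 ± 2.55 FPKM in WT, with overlapping ranges in each group. In both groups every Alox5 value lay below every Lta4h value. Ptgs1, which overlapped Ltc4s in both groups, followed at 6.04 ± 0.385 FPKM in TG and 5.72 ± 1.12 FPKM in WT, and Alox12 at 3.80 ± 0.953 FPKM in TG and 4.00 ± 0.878 FPKM in WT.

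Below 1 FPKM in every library lay Ptges, at 0.765 ± 0.191 FPKM in TG and 0.587 ± 0.227 FPKM in WT, Alox15, at most 0.13 FPKM in TG and 0.37 to 0.69 FPKM in WT, and Ptgs2, at most 0.40 FPKM in TG and 0.32 FPKM in WT. The FPKM of Alox5 was 1.13 to 1.39 times that of Ptgs1 within the TG libraries and 1.64 to 2.71 times within the WT libraries. This ratio does not depend on library size, but it contains the Alox5 values that chose the gene. Against its partner Alox5ap, the FPKM of Alox5 was 0.436 to 0.725 times in TG and 0.635 to 0.83 times in WT, and these ranges overlapped.

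**Figure D4:**
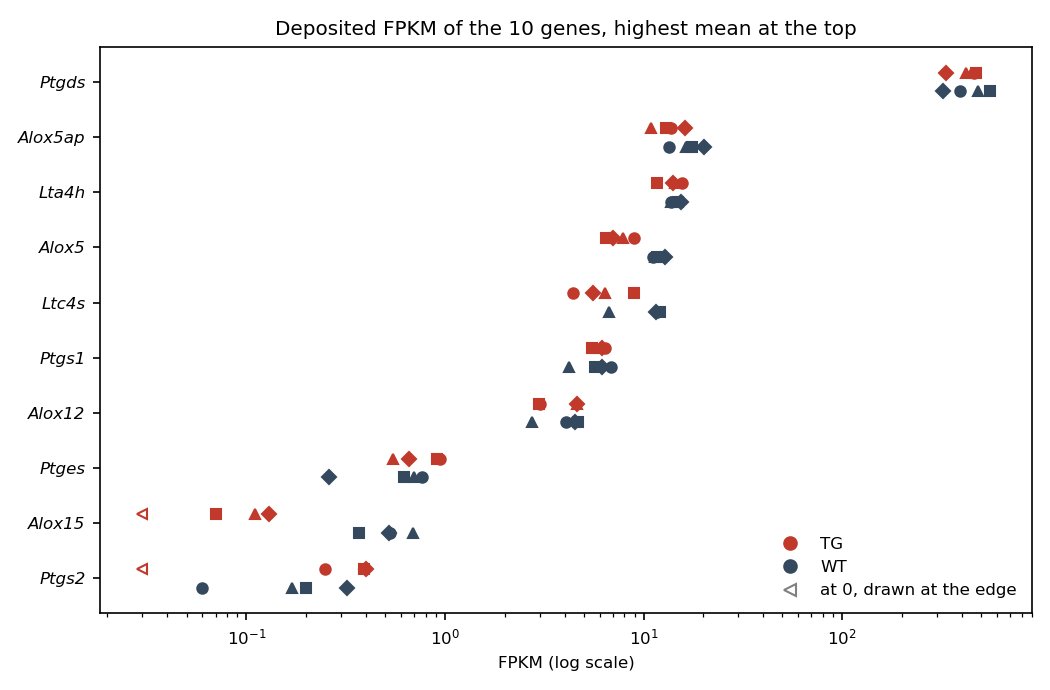
Deposited FPKM (horizontal axis, log scale) of the 10 genes, ordered down the page by their mean over the 8 libraries, with TG (red) above WT (dark blue) for each gene and 1 marker per library. Open triangles are libraries at 0, drawn at the edge of the axis. Ptgds lies at 321 FPKM or more in every library, and Ptges, Alox15 and Ptgs2 lie below 1 FPKM in every library.

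Among 10483 other genes with a mean of at least 5 CPM, those whose levels varied most like Alox5 over the 8 libraries, after each group's mean was taken out of both genes, were Hrct1, Galnt2, Gar1, Furin and Gpc1. Pearson's r of their log2 CPM with Alox5 was 0.99, 0.98, 0.97, 0.97 and 0.97. These are the top values of a search over many genes and 8 libraries, given as a description. The SD of Alox5 was 16.7% of its mean in TG and 5.14% in WT, so these r rest mostly on the 4 TG libraries. With the group means left in, r was 0.71, -0.03, 0.79, -0.11 and 0.87 in the same order of genes. In TG all 5 had their highest level in replicate 1 and their lowest in replicate 2, the largest and the smallest library of the group. Of the enzyme genes, again with the group means taken out, Lta4h had r = 0.93 with Alox5, Ptgs1 0.39, Ptgds 0.18, Alox12 0.16, Alox5ap 0.14 and Ltc4s -0.35. Among leukocyte and macrophage markers at this level, r was 0.72 for Cd52, 0.38 for Laptm5 and 0.33 for Coro1a, 0.58, 0.54 and 0.55 for the complement genes C1qa, C1qb and C1qc, 0.40 for Cd68 and 0.18 for Csf1r, but -0.10 for Adgre1, -0.36 for Cd163, -0.40 for Mertk, -0.47 for Lyve1 and -0.59 for Mrc1. The markers of macrophages thus lay on both sides of 0. With the group means left in, r was 0.72, 0.75 and 0.79 for C1qa, C1qb and C1qc, 0.68 for Csf1r and 0.63 for Cd68. It was 0.21 for Adgre1, 0.03 for Mrc1, -0.15 for Mertk, -0.17 for Lyve1 and -0.36 for Cd163. It was 0.65 for Cd52, 0.68 for Laptm5 and 0.62 for Coro1a. Among enzyme genes it was 0.63 for Alox5ap, 0.56 for Lta4h, 0.53 for Ltc4s, 0.16 for Alox12, 0.12 for Ptgds and -0.07 for Ptgs1. These r contain the Alox5 difference that chose the gene.

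The cells known for 5-lipoxygenase were followed through marker lists. The pan-leukocyte markers Ptprc, Cd52, Coro1a and Laptm5 summed to 121, 92.0, 80.1 and 106 CPM in TG replicates 1 to 4 and to 114, 129, 107 and 136 CPM in WT replicates 1 to 4, and all 4 had a negative fold change. The 11 macrophage markers, among them C1qa at 125 ± 30.8 CPM in TG hearts and 151 ± 12.5 CPM in WT hearts (SD, n = 4 each), summed to 685, 552, 425 and 559 CPM in TG hearts and 627, 697, 641 and 750 CPM in WT hearts, and 10 of 11 were negative in fold change, the median over the list being -0.24. Neither list held a gene that was called. The macrophage sum of TG replicate 1 lay inside the WT range, and the other 3 TG libraries lay below every WT library.

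Mast cell markers summed to 15.4, 25.2, 18.5 and 18.7 CPM in TG hearts and 30.9, 31.9, 17.7 and 17.3 CPM in WT hearts, with the mast cell protease gene Tpsb2 averaging 3.41 ± 0.910 CPM in TG hearts, against 5.39 ± 3.28 CPM in WT hearts (SD, n = 4 each). Of 5 tested mast cell genes 4 had a negative fold change, none was called, and Fcer1a, Ms4a2 and Tpsab1 were at 0 to 3 counts in the libraries. WT replicates 3 and 4 lay inside the TG range of the mast cell sum, and WT replicates 1 and 2 above it. The neutrophil markers summed to 19.5 to 98.0 CPM in TG hearts and 19.8 to 25.1 CPM in WT hearts. Of 4 tested neutrophil genes 3 had a positive and 1 a negative fold change, with a median log2 fold change of 0.50, and none was called. In TG replicate 1, Mmp9 alone held 54.9 of the 98.0 CPM. Of all marker genes outside these lists, the epicardial gene Wt1 had groups apart on the CPM scale but not in FPKM, at 7.59 ± 0.404 CPM in TG hearts and 10.1 ± 1.47 CPM in WT hearts (SD, n = 4 each), and was not called (edgeR, Benjamini-Hochberg adjusted p = 1.0). The part of these cells in the levels of Alox5, Alox5ap, Ltc4s and Alox15 was not tested.

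**Figure D5:**
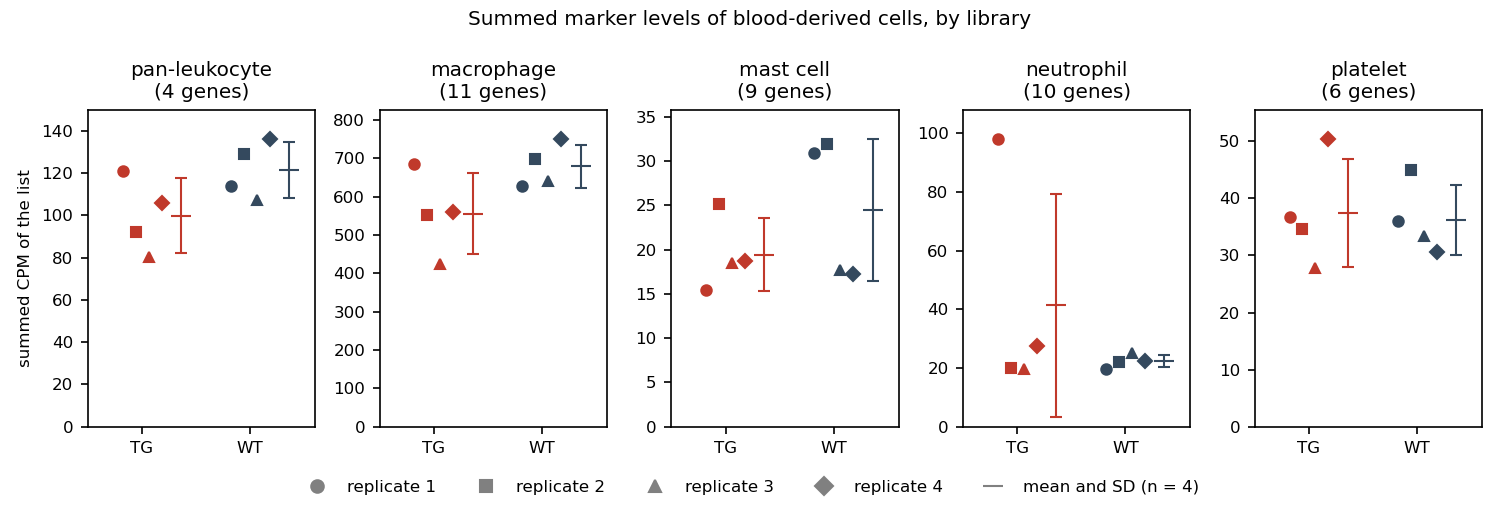
Summed CPM (vertical axes, from 0) of marker genes of leukocytes, macrophages, mast cells, neutrophils and platelets in TG (left, red) and WT (right, dark blue), with 1 marker per library and the mean with SD beside it (n = 4 per group). The groups overlap in all 5 lists, the neutrophil sum of TG replicate 1 stands at 98.0 CPM, and WT replicates 1 and 2 have the highest mast cell sums, at 30.9 and 31.9 CPM.

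The rest of the eicosanoid pathway, 69 genes in 9 lists, held 39 tested genes, of which none was called by edgeR or DESeq2. In edgeR 1 of the 39 had an unadjusted p under 0.05, 23 had a negative and 16 a positive fold change, and the median log2 fold change was -0.03. In none of the 39 were the groups apart. Over all genes tested, edgeR called 0.0158% and DESeq2 called 16 of 18148, and 3.49% had an unadjusted p under 0.05 in edgeR. Every TG library lay below every WT library in 1.29% of the genes, and above in 1.23%. At these shares few of 39 genes would be counted, so the counts are not read as a result about the pathway. Among the phospholipases A2, which release the fatty acid, the most abundant by FPKM was the secreted Pla2g12a, at 61.5 ± 8.90 CPM in TG hearts and 69.6 ± 9.42 CPM in WT hearts (SD, n = 4 each). Of 8 tested members of that list 3 had a positive and 5 a negative fold change.

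Among the genes that convert or break down leukotrienes, 4 of 6 tested had negative fold changes, and the median log2 fold change was -0.24. The most abundant was Mgst3, a microsomal glutathione transferase, at 419 ± 78.1 CPM in TG hearts and 510 ± 84.9 CPM in WT hearts (SD, n = 4 each), with a log2 fold change of -0.28 (95% interval -0.61 to 0.04; edgeR, adjusted p = 1.0). The gene with the unadjusted p under 0.05, named after its value was seen, was Cyp4f18, which in mice inactivates leukotriene B4. It stood at 1.23 ± 0.311 CPM in TG hearts and 2.04 ± 0.378 CPM in WT hearts (SD, n = 4 each), with an edgeR Benjamini-Hochberg adjusted p of 1.0 and groups that overlapped. Of the leukotriene receptors, Gpr17 alone passed the filter, at 10.4 ± 2.45 CPM in TG hearts and 9.24 ± 1.48 CPM in WT hearts, and since it overlaps Lims2 in the annotation and the use of strand is not stated, its reads may belong to either gene.

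Among 7 other terminal prostanoid synthases, all tested, 3 had a positive and 4 a negative fold change. The most abundant was Akr1b3, an aldose reductase that can also form prostaglandin F2alpha, at 294 ± 24.9 CPM in TG hearts and 293 ± 31.0 CPM in WT hearts (SD, n = 4 each). Of 5 tested prostanoid receptors 1 had a positive and 4 a negative fold change. Of the genes that take up and break down prostaglandins 3 of 4 had a positive fold change, with the reductase Ptgr2 at 166 ± 26.8 CPM in TG hearts and 152 ± 20.6 CPM in WT hearts.

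Of 6 tested epoxygenases, hydroxylases and epoxide hydrolases 4 had a negative and 2 a positive fold change. Ephx2, the soluble epoxide hydrolase, which turns the epoxides of arachidonic acid into diols, was the most abundant at 283 ± 22.5 CPM in TG hearts and 267 ± 27.5 CPM in WT hearts (SD, n = 4 each). Its 95% interval on the log2 scale ran from -0.15 to 0.32. The other lipoxygenase tested, Alox8, stood at 2.20 ± 0.961 CPM in TG hearts and 2.14 ± 0.538 CPM in WT hearts, and the chemerin and resolvin receptor gene Cmklr1 at 45.8 ± 7.29 CPM in TG hearts and 50 ± 10.5 CPM in WT hearts. Neither passed the threshold (edgeR, Benjamini-Hochberg adjusted p = 1.0 for both).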

How the data were processed

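Polyadenylated heart mRNA was sequenced in 4 TG and 4 WT libraries, and groups were taken from the sample titles. The deposited tables give an expected count, an estimated and unnormalized number of reads or fragments per gene, and an FPKM value, scaled to gene length and library size, per the file headers. Per the submitters' processing notes, Bowtie2 and the mm8 build are named, with no role stated for either. The counting program and its use of strand are not given in the sources used here. Genes absent from a library's table were taken as 0. Of 18215 gene numbers, 18174 matched a symbol in the RefSeq table of GRCm38.p6, which was used for names, neighbours and promoter sequences.

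Expected counts were rounded, filtered with filterByExpr (minimum count 10, total 15; 12670 genes left) and tested with edgeR 4.0.16 in R 4.3.3 (quasi-likelihood F-test, TMM, group alone, two-sided, Benjamini-Hochberg, threshold 0.05). SE is the absolute log2 fold change over the square root of F, and 95% intervals use its t distribution. CPM uses TMM-scaled sizes, and 3 counts equal 0.380 to 0.479 CPM. Log2 CPM used a prior count of 2. DESeq2 1.42.0 and limma 3.58.1 were alternatives. Scripts were tested on simulated counts. No 2 libraries of a group agreed within sampling noise (smallest chi-square per degree of freedom 4.29). Counting intervals and the limit of 3 counts cover counting error only, since reads are not independent molecules.

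The 10 genes, the lists and the settings were chosen with earlier results of these data known. Named beside the 10 genes were those of the lists that passed the threshold or had groups apart at a mean of at least 1 CPM, and the most abundant by FPKM of each pathway list, except that of the prostanoid receptors, which is not reported here. Cyp4f18 falls outside this rule and was named after its values were seen. The same holds for the unadjusted p of Csf1r and C1qc and for the levels of Mmp9 and Myl7. Of the marker lists those that bear on a result are reported.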

Additional observations from a re-analysis of the deposited data

How the results depend on the processing

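None of the 9 genes beside Alox5 was called under any of the 19 other settings in which it was tested. Alox15 was tested with no filter and with DESeq2, and Ptgs2 in these and 2 more. The log2 fold change of Alox5 was negative in all 19, from -0.83 (shallower libraries only) to -0.44 (deeper libraries only). With single libraries removed, its size ranged from -0.72 to -0.54. The constant sign of Alox5 is not a check, because the gene was chosen for its lower level and its groups did not overlap. Ltc4s stayed negative in all 19, between -1.14 and -0.31, and Alox5ap between -0.41 and -0.25. Signs near 0 turned. In the shallower libraries alone Alox12 was 0.09 and Ptgds 0.01, and in the deeper ones alone Lta4h was 0.06 and Ptgs1 -0.0023. Leaving out 1 library gave -0.22 to 0.04 for Alox12 (0.03 without TG replicate 1 or TG replicate 2, 0.04 without WT replicate 2), -0.11 to 0.04 for Lta4h (0.04 without TG replicate 2, 0.0001 without WT replicate 2), -0.19 to 0.11 for Ptgds (0.06 without TG replicate 4, 0.11 without WT replicate 2), and -0.04 to 0.19 for Ptgs1 (-0.04 without WT replicate 3). Ptges lay between 0.09 in the deeper and 0.71 in the shallower libraries, and between 0.11 (without WT replicate 4) and 0.51 when 1 library was left out.

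The number of genes called over the whole table, 2 in the main edgeR test, was 16 with DESeq2, 4 with no filter, 1 with limma at either pseudocount, 28 with the depth class as covariate, 59 in the deeper and 4 in the shallower libraries only, and 1 to 3 when 1 library was left out. With Carns1 left out edgeR called 0, with 441 genes at an unadjusted p under 0.05. Lrrc15, at an adjusted p of 0.0349 in the main test (edgeR, Benjamini-Hochberg), was thus not called without Carns1. That adjustment depends on the rank of a gene, and Carns1 ranked ahead of Lrrc15. Whether other steps of the fit also changed this call was not tested. With the replicate number as a block 1 gene was called. Same-numbered libraries deviated together with r of 0.24, -0.28, -0.18 and 0.40, and 3 of 8 libraries matched best with their own number, so the numbers were not taken as pairs. Alox15 and Ptgs2 were under the filter in the main test and rest on 41 and 55 counts over all libraries, so depth limits them most.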
